A study of Mus musculus with 12 samples.

Results

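The semaphorins, ephrins, Slits and netrins are secreted or membrane-bound guidance ligands, and the plexins, neuropilins, Robos, Dcc and Unc5 proteins and Eph kinases are their receptors. Genes of these families were picked by symbol from the array annotation, which gave 70 of the 22180 genes measured, 34 ligands and 33 receptors, with 3 further symbols that share a prefix without being a guidance ligand or receptor. Expression was compared in lungs of mouse embryos at E14.5 on single-channel Affymetrix arrays. There were 4 arrays of Yy1flox/flox;Shh+/Cre embryos (Yy1 mutants), 4 of Dicerflox/flox;Shh+/Cre embryos (Dicer mutants) and 4 of Shh+/Cre embryos (controls). All 3 genotypes therefore carried the Cre allele at Shh, a gene of the lung epithelium, and the controls carried no floxed allele by their label. Yy1 encodes a zinc finger transcription factor and Dicer an RNase that matures microRNAs. The study, by its title, addressed how epithelial loss of Yy1 affects airway branching. The labels name neither litter nor sex, nor whether a specimen held 1 embryo or several, so p-values measure only the spread between these specimens.

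Guidance ligands were first studied as cues that steer growing axons and cell migration, and each family signals through its own receptors. Class 3 semaphorins bind neuropilins and plexins, Slits bind Robos, netrins bind Dcc and Unc5 receptors, and ephrins bind Eph kinases on neighbouring cells. The same molecules act outside nerves, in the patterning of vessels, and in the lung netrins of the airway basement membrane have been described to restrain bud formation.

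All values are log2 signals of the deposited table. Array medians lay between 5.99 and 6.08, and the correlation of 2 arrays over probe sets was 0.978 to 0.991. Yy1 did not pass in Yy1 mutants (log2 difference -0.19, adjusted p = 0.125), and Dicer1 fell in Dicer mutants (log2 difference -0.61, adjusted p = 0.00127). The position of the probes with respect to the deleted exons was not known. On Yy1 mutants 2 and 3 and Dicer mutant 4, Y-linked genes stood above all controls, so counts are also given without these 3 arrays (the Y-high arrays). The Y-linked Uty read 8.52, 5.14 and 8.28 on them in that order, beside a control mean of 3.92. Xist read 8.55, 11.11 and 9.64, beside a control mean of 11.23, so Yy1 mutant 3 was unlike the other Y-high arrays. A fit without them leaves 9 arrays, so a call can be lost without a change in the difference. Of the 70 guidance genes, 68 lay above the level that the dimmest 30% of genes stayed under, and Epha6 and Robo3 lay below it. The 12 lung epithelium markers, the 9 smooth muscle markers, the 10 mesenchyme markers, the 12 endothelium markers and the 9 macrophage markers were all measured.

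In Yy1 mutants 18 of the 70 guidance genes passed limma's test at an adjusted p (Benjamini-Hochberg, over the 22180 genes) under 0.05, 8 higher and 10 lower than in controls. That was 25.7% of the guidance genes, where the same rule called 6.61% of all genes (2.77% higher, 3.84% lower). In Dicer mutants 23 of 70 passed, 13 higher and 10 lower than in controls. This was 32.9%, against 8.75% of all genes, with 4.78% higher and 3.97% lower. Between Yy1 and Dicer mutants 15 of 70 passed, 8 higher and 7 lower in Yy1 mutants, or 21.4% against 4.96% of all genes (1.57% higher, 3.39% lower). Calls ran in both directions, and the median log2 difference of the 70 genes was -0.0024 in Yy1 mutants, 0.0084 in Dicer mutants and 0.0069 between them, beside 0.0016, -0.0276 and 0.0291 over all genes. The median absolute difference was 0.142, 0.189 and 0.198 for the guidance genes and 0.0961, 0.107 and 0.0969 for all genes. Among the 68 brighter members the counts were 23, 27 and 18, beside 11.8%, 15.3% and 8.93% of all brighter genes. Without the 3 Y-high arrays they were 12, 14 and 8 of 70, beside 2.73%, 4.40% and 1.96% of all genes. The shares of all genes called, 6.61%, 8.75% and 4.96%, are those to set beside the counts by family and by marker list below. The comparisons of the mutants with controls share the same 4 control arrays. In these whole-lung samples, fewer cells of a type and less RNA per cell cannot be told apart.

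**Figure D1:**
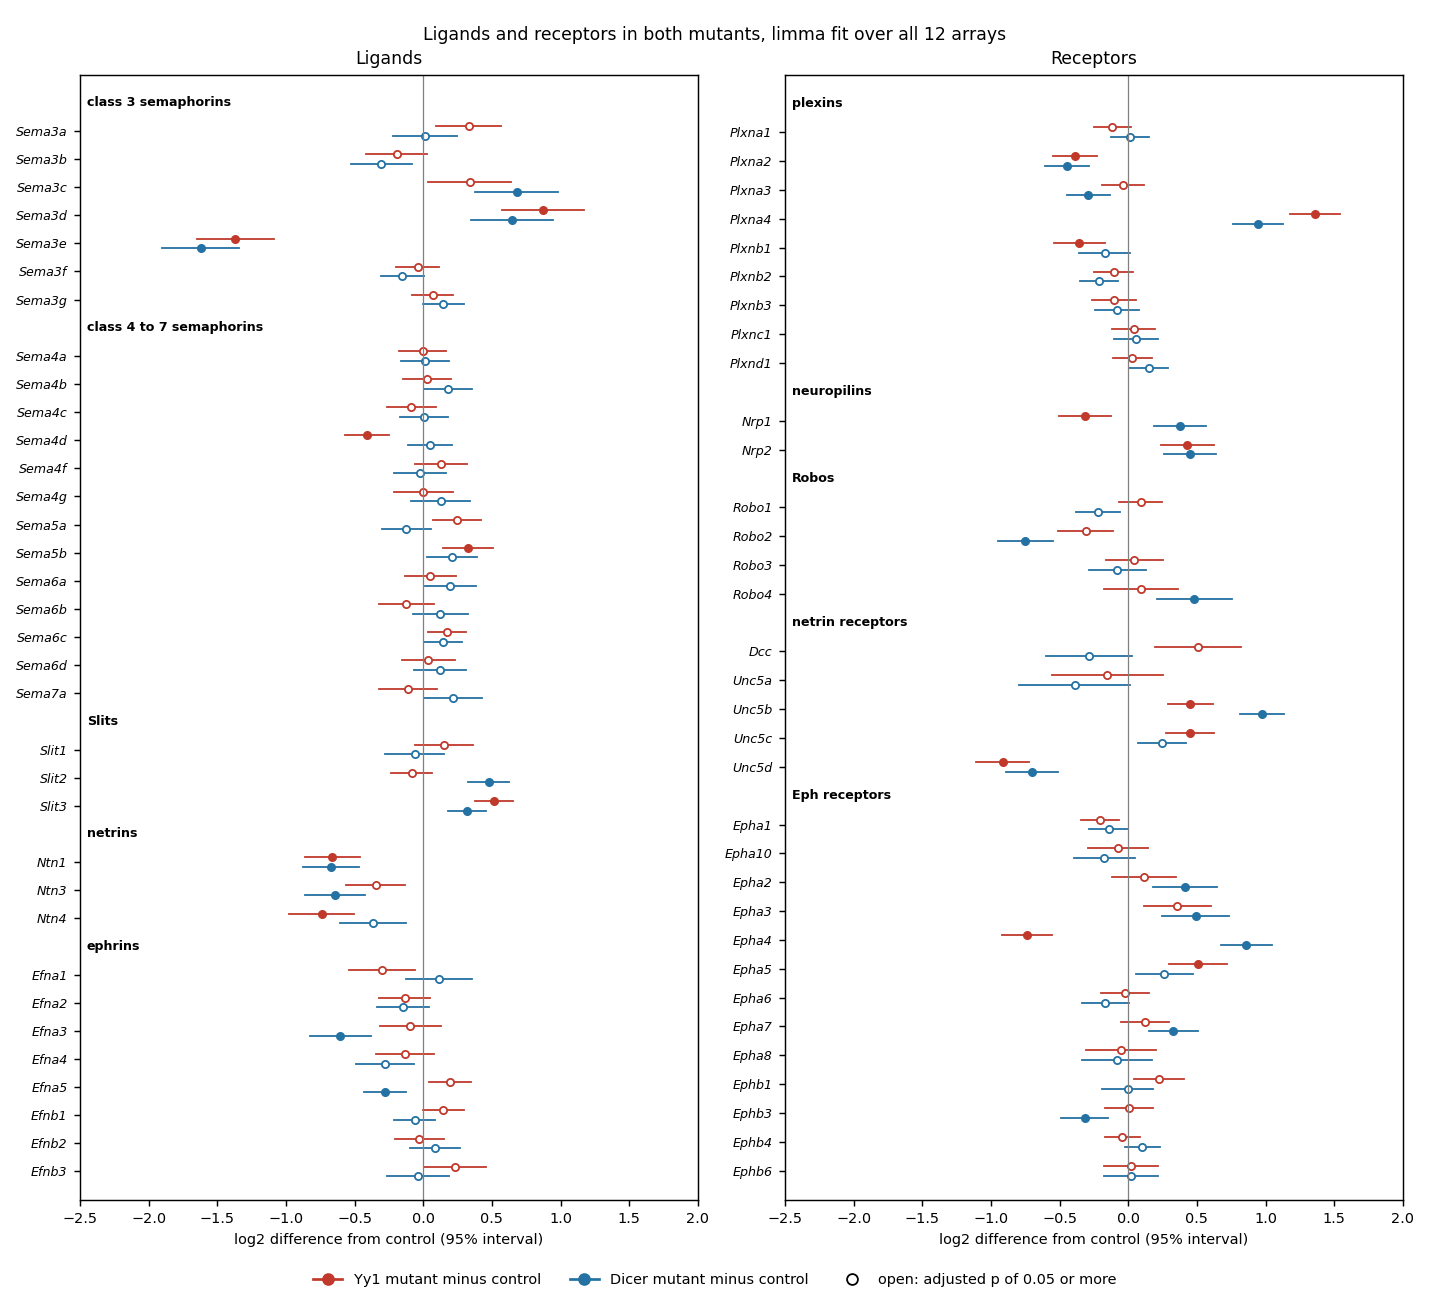
Log2 difference from control with its 95% interval (x axis) for the 34 ligands (left) and 33 receptors (right), by family, in Yy1 mutants (red) and Dicer mutants (blue). Filled points have an adjusted p under 0.05. Sema3e lies far to the left in both mutants, Plxna4 far to the right, and Epha4 and Nrp1 lie on opposite sides of 0.

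Among the class 3 semaphorins, which are secreted, Sema3e fell and Sema3d rose in both mutants, and Sema3c rose in Dicer mutants. Sema3e, a vascular guidance cue that binds plexin D1 without a neuropilin, read 7.14, 7.19, 6.98 and 6.76 in Yy1 mutants, 6.58, 6.74, 7.07 and 6.67 in Dicer mutants, and 8.30, 8.69, 8.33 and 8.22 in controls. Every mutant array lay below every control array. The difference from controls was -1.37 (SE 0.13, adjusted p = 3.03e-05) in Yy1 mutants and -1.62 (SE 0.13, adjusted p = 7.51e-06) in Dicer mutants, that is 2.58-fold and 3.08-fold lower. Its plexin, Plxnd1, passed in neither mutant, with 0.03 (SE 0.066, adjusted p = 0.884) in Yy1 mutants (95% interval -0.11 to 0.17) and 0.15 (SE 0.066, adjusted p = 0.204) in Dicer mutants (95% interval 0.01 to 0.29). 

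The stretch around the Sema3e start site is shown because it is 1 of 2 among the called genes that hold CCATNTT. These letters, an inner part of the Yy1 binding motif, were searched on both strands (AANATGG on the opposite one). The stretch is the RefSeq window on GRCm38.p6 from 250 bases before to 50 bases after the start, at chr5:14025026-14025325 on the plus strand. The match, which lies on the opposite strand, is in capitals.
Sema3e: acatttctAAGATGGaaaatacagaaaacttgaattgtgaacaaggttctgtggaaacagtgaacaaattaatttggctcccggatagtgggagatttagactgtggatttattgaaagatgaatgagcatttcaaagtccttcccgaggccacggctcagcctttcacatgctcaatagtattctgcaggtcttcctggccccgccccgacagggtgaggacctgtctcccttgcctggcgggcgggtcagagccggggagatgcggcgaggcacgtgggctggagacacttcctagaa
Of the 70 guidance genes, 59 were found in the promoter table with 75 windows of this length. Of these, 6 windows (8.0%) of 5 genes (8.47%) held the letters CCATNTT. Over all genes of the table, 16.1% of windows and 18.2% of genes held them. The median GC content was 64.3% in the windows of guidance genes and 52.7% in all windows. Of the 30 guidance genes called in either mutant against control, 27 had a window and 2, Sema3e and Sema4d, had a match. A match describes letters only, and binding was not measured.

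Sema3d, a neuropilin ligand known for patterning pulmonary veins, read 8.28, 8.10, 8.10 and 8.45 in Yy1 mutants, 7.66, 8.45, 7.96 and 7.95 in Dicer mutants, and 7.27, 7.40, 7.26 and 7.51 in controls. Both sets of mutant arrays lay above all controls, and Dicer mutant 2 stood above the other Dicer mutants. Sema3d rose in Yy1 mutants (log2 difference 0.87, SE 0.14, adjusted p = 0.00162) and in Dicer mutants (log2 difference 0.65, SE 0.14, adjusted p = 0.00987). Sema3c, which acts in septation of the cardiac outflow tract, read 9.21, 9.28, 9.21 and 8.85 in Yy1 mutants, 9.19, 9.69, 9.62 and 9.42 in Dicer mutants, and 8.83, 9.0, 8.42 and 8.95 in controls. Dicer mutants lay above all controls, while Yy1 mutant 4 lay among the controls and the other Yy1 mutants above them. The difference was 0.68 (SE 0.14, adjusted p = 0.00838) in Dicer mutants and 0.34 (SE 0.14, adjusted p = 0.204) in Yy1 mutants, which did not pass. The other 4 class 3 genes, Sema3a, Sema3b, Sema3f and Sema3g, passed in neither comparison.

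Of the 13 class 4 to 7 semaphorins, which are bound to the membrane, 2 passed in Yy1 mutants and 0 in Dicer mutants (limma; 5 at an unadjusted p under 0.05). Sema4d, the ligand of plexin B1, read 6.72, 6.76, 6.61 and 6.61 in Yy1 mutants, 7.15, 7.04, 7.30 and 7.02 in Dicer mutants, and 7.17, 7.06, 7.06 and 7.03 in controls. The Yy1 mutants lay below every other array, and Dicer mutants overlapped the controls. It fell in Yy1 mutants (log2 difference -0.41, SE 0.074, adjusted p = 0.00412) against controls and was lower there than in Dicer mutants (log2 difference -0.46, SE 0.074, adjusted p = 0.00227). Plxnb1, its receptor, averaged 7.85 ± 0.117 in Yy1 mutants, 8.03 ± 0.0896 in Dicer mutants and 8.20 ± 0.151 in controls (SD, n = 4 each). It fell in Yy1 mutants (log2 difference -0.36, SE 0.087, adjusted p = 0.0248). The gene has a second, dimmer probe set, with a difference of -0.12 in Yy1 mutants, and the mean of both probe sets did not pass (adjusted p = 0.104). Leaving out Yy1 mutant 3, Yy1 mutant 4, control 2 or control 4 also ended this call (adjusted p 0.0605 to 0.0800), as did leaving out the 3 Y-high arrays (adjusted p = 0.147). Sema5b, a semaphorin with thrombospondin repeats, averaged 7.08 ± 0.0876 in Yy1 mutants, 6.96 ± 0.107 in Dicer mutants and 6.75 ± 0.149 in controls (SD, n = 4 each). It rose in Yy1 mutants (log2 difference 0.33, SE 0.085, adjusted p = 0.0353), a call that was lost in 7 of the 12 fits without 1 array, those without any Yy1 mutant or without control 1, 2 or 3 (adjusted p 0.0559 to 0.0879). Without the 3 Y-high arrays its adjusted p was 0.222. Its relative Sema5a was higher in Yy1 mutants than in Dicer mutants (log2 difference 0.37, SE 0.082, adjusted p = 0.0192) and averaged 8.91 ± 0.132 in Yy1 mutants, 8.54 ± 0.114 in Dicer mutants and 8.67 ± 0.0856 in controls (SD, n = 4 each). That call was lost without Yy1 mutant 1, Yy1 mutant 3, Dicer mutant 1 or Dicer mutant 4 (adjusted p 0.0541 to 0.0628) and without the 3 Y-high arrays (adjusted p = 0.200).

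All 3 netrins measured were on the lower side in both mutants, with 2 of 3 passing in each. Ntn1, the founding netrin, which binds Dcc and Unc5 receptors, read 6.53, 6.17, 6.43 and 6.30 in Yy1 mutants, 6.39, 6.32, 6.47 and 6.21 in Dicer mutants, and 7.13, 6.93, 6.88 and 7.14 in controls. No mutant array reached the lowest control. It fell in Yy1 mutants (log2 difference -0.66, SE 0.093, adjusted p = 0.000661) and in Dicer mutants (log2 difference -0.67, SE 0.093, adjusted p = 0.000550). Ntn4, a netrin of basement membranes, read 5.70, 5.92, 5.66 and 5.29 in Yy1 mutants, 6.0, 6.11, 6.08 and 5.89 in Dicer mutants, and 6.36, 6.51, 6.41 and 6.25 in controls. Both mutants lay below the controls, and Yy1 mutant 4 was lowest. It fell in Yy1 mutants (log2 difference -0.74, SE 0.11, adjusted p = 0.00107), and the difference in Dicer mutants, -0.37 (SE 0.11, adjusted p = 0.0599), did not pass with all arrays but passed without Yy1 mutant 2 or Yy1 mutant 4 (adjusted p 0.0160 to 0.0345). Ntn3 read 7.56, 7.60, 7.44 and 7.29 in Yy1 mutants, 7.24, 7.28, 7.20 and 6.99 in Dicer mutants, and 8.07, 7.69, 7.79 and 7.71 in controls. It too lay below the controls on every mutant array. It fell in Dicer mutants (log2 difference -0.64, SE 0.10, adjusted p = 0.00131), and the difference in Yy1 mutants, -0.35 (SE 0.10, adjusted p = 0.0584), did not pass.

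Most epithelial and smooth muscle markers were also lower in both mutants. Of 12 lung epithelium markers, 10 were called lower in Yy1 mutants and 9 in Dicer mutants. Their mean level spanned 7.90 to 8.23 in Yy1 mutants, 8.23 to 8.42 in Dicer mutants and 8.65 to 8.85 in controls. The median difference of the list was -0.74 in Yy1 mutants and -0.36 in Dicer mutants. Foxa2, a transcription factor of the airway epithelium, averaged 7.79 ± 0.160 in Yy1 mutants, 8.25 ± 0.0982 in Dicer mutants and 8.75 ± 0.107 in controls (SD, n = 4 each). Of 9 smooth muscle markers, 7 were called lower in Yy1 mutants and 8 in Dicer mutants, with mean levels of 7.46 to 7.93 in Yy1 mutants, 7.49 to 8.07 in Dicer mutants and 8.82 to 9.06 in controls. Myh11, the smooth muscle myosin heavy chain, differed by -1.99 in Yy1 mutants and -2.06 in Dicer mutants. The part of these cells in the netrin result was not tested.

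Of the 3 Slits, secreted ligands of the Robos, Slit3 rose in both mutants and Slit2 in Dicer mutants. Slit2 read 9.49, 9.50, 9.51 and 9.48 in Yy1 mutants, 10.04, 10.10, 10.02 and 10.08 in Dicer mutants, and 9.40, 9.73, 9.58 and 9.60 in controls. Dicer mutants lay above every other array, and Yy1 mutants lay within the range of the controls. The gene rose in Dicer mutants against controls (log2 difference 0.48, SE 0.069, adjusted p = 0.000748). It did not pass in Yy1 mutants (log2 difference -0.08, SE 0.069, adjusted p = 0.576), and it was lower in Yy1 than in Dicer mutants (log2 difference -0.56, SE 0.069, adjusted p = 0.000314). Slit3, whose loss in mice causes diaphragmatic hernia, read 9.79, 9.80, 9.67 and 9.66 in Yy1 mutants, 9.45, 9.64, 9.49 and 9.55 in Dicer mutants, and 9.24, 9.24, 9.17 and 9.21 in controls. Yy1 mutants were highest, Dicer mutants lay between and controls were lowest, with no overlap between any of the genotypes. The signal rose in Yy1 mutants (log2 difference 0.52, SE 0.064, adjusted p = 0.000251) and in Dicer mutants (log2 difference 0.32, SE 0.064, adjusted p = 0.00658), and the difference between the mutants was 0.20 (SE 0.064, adjusted p = 0.113). Slit1 passed in neither mutant.

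No ephrin of 8 passed in Yy1 mutants (limma; 0 called, 3 at an unadjusted p under 0.05), and 2 of 8 fell in Dicer mutants, both of the A class that is anchored by a lipid. Efna3 read 7.37, 7.38, 7.27 and 7.11 in Yy1 mutants, 7.06, 6.71, 6.61 and 6.71 in Dicer mutants, and 7.27, 7.27, 7.55 and 7.41 in controls. The Dicer mutants lay below all other arrays. The fall was -0.60 (SE 0.10, adjusted p = 0.00247) against controls, and Yy1 mutants were higher than Dicer mutants (log2 difference 0.51, SE 0.10, adjusted p = 0.0104, or 0.213 without the 3 Y-high arrays). Efna5 read 8.01, 7.69, 7.80 and 7.85 in Yy1 mutants, 7.28, 7.43, 7.38 and 7.37 in Dicer mutants, and 7.68, 7.65, 7.59 and 7.66 in controls. Its lowest arrays were the Dicer mutants, and the Yy1 mutants lay just above the controls. It fell in Dicer mutants (log2 difference -0.28, SE 0.072, adjusted p = 0.0278), a call lost without Dicer mutant 1, 3 or 4 or control 1 or 4 (adjusted p 0.0589 to 0.0688) and without the 3 arrays (adjusted p = 0.0668). Between the mutants it was higher in Yy1 mutants (log2 difference 0.47, SE 0.072, adjusted p = 0.00152). Efna1 averaged 8.45 ± 0.241 in Yy1 mutants, 8.87 ± 0.0413 in Dicer mutants and 8.75 ± 0.171 in controls (SD, n = 4 each) and was lower in Yy1 than in Dicer mutants (log2 difference -0.42, SE 0.11, adjusted p = 0.0471), a call lost in 9 of the 12 fits without 1 array, all except those without Yy1 mutant 2, control 2 or control 4 (adjusted p 0.0560 to 0.107), and without the 3 arrays (adjusted p = 0.136). The B class, with a transmembrane stalk, had 0 calls in limma's test (at an unadjusted p under 0.05, 1 in Yy1 mutants, 0 in Dicer mutants and 2 between them). Efnb2, the arterial ephrin, had a difference of -0.03 (SE 0.084, adjusted p = 0.912) in Yy1 mutants, with a 95% interval of -0.21 to 0.15. In Dicer mutants it was 0.08 (SE 0.084, adjusted p = 0.615), with an interval of -0.10 to 0.26.

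**Figure D2:**
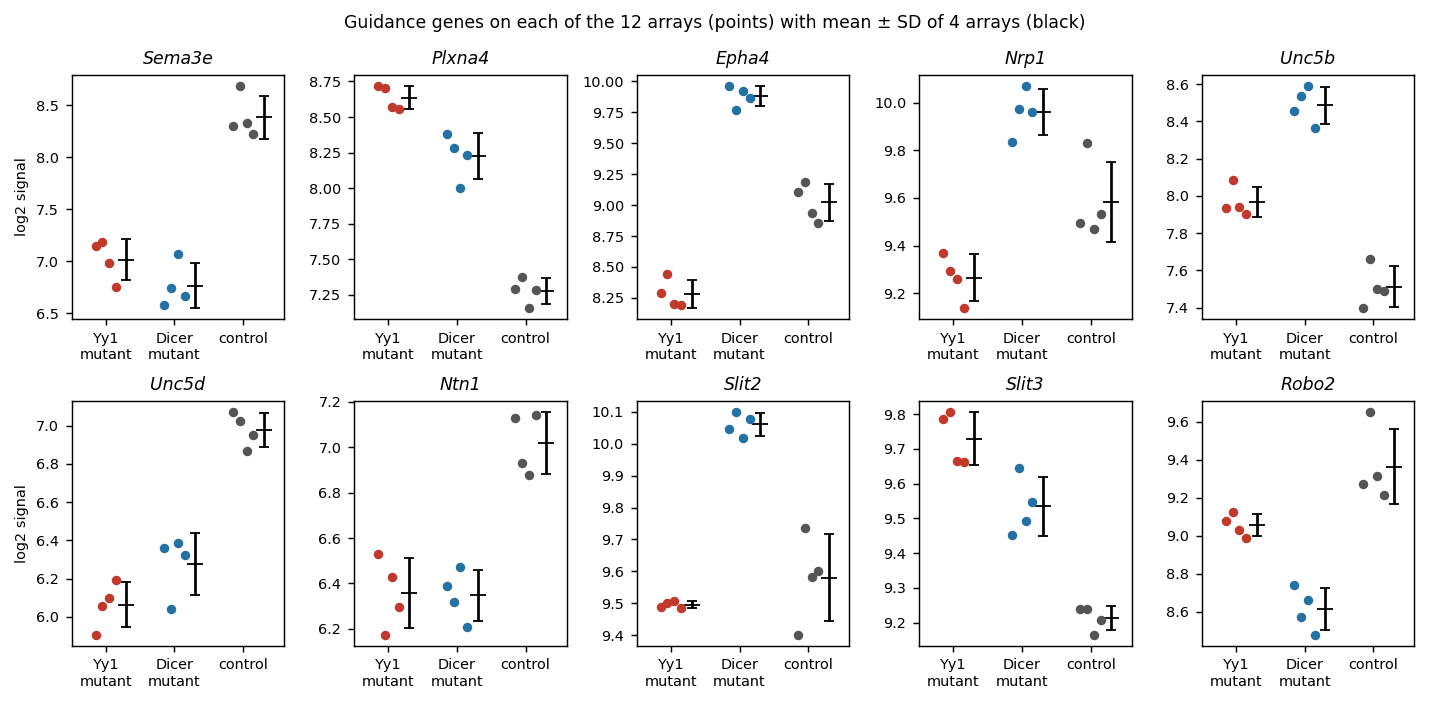
Log2 signal (y axis, one scale per gene) of 10 ligand and receptor genes on each of the 12 arrays, with the mean and SD of the 4 arrays of a genotype in black. Sema3e, Unc5d and Ntn1 are lower in both mutants than in controls, Plxna4, Slit3 and Unc5b higher, and Epha4 and Nrp1 lie below the controls in Yy1 mutants and above them in Dicer mutants.

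Of the 9 plexins, which transmit semaphorin signals into the cell, 3 passed in each mutant, and Plxna4 led. Plxna4, a co-receptor of neuropilins for class 3 semaphorins that also binds class 6 semaphorins directly, read 8.71, 8.70, 8.57 and 8.56 in Yy1 mutants, 8.38, 8.28, 8.0 and 8.23 in Dicer mutants, and 7.29, 7.38, 7.16 and 7.29 in controls. The lowest mutant array lay above the highest control, and the Yy1 mutants lay above the Dicer mutants. It rose in Yy1 mutants (log2 difference 1.36, SE 0.085, adjusted p = 9.56e-07) and in Dicer mutants (log2 difference 0.95, SE 0.085, adjusted p = 1.69e-05), that is 2.57-fold and 1.93-fold. Between Yy1 and Dicer mutants the difference was 0.41 (SE 0.085, adjusted p = 0.0111, or 0.153 without the 3 Y-high arrays). The antisense transcript Plxna4os1, listed as a gene of its own, passed in neither mutant, with 0.04 (SE 0.14, adjusted p = 0.922) in Yy1 mutants and 0.04 (SE 0.14, adjusted p = 0.894) in Dicer mutants. Plxna2 averaged 7.87 ± 0.0932 in Yy1 mutants, 7.82 ± 0.0818 in Dicer mutants and 8.26 ± 0.107 in controls (SD, n = 4 each). It fell in Yy1 mutants (log2 difference -0.39, SE 0.075, adjusted p = 0.00570, or 0.0566 without the 3 arrays) and in Dicer mutants (log2 difference -0.44, SE 0.075, adjusted p = 0.00211). Plxna3, which pairs with neuropilin 2 for Sema3f, averaged 7.68 ± 0.0742 in Yy1 mutants, 7.43 ± 0.0903 in Dicer mutants and 7.72 ± 0.0966 in controls (SD, n = 4 each). It fell in Dicer mutants (log2 difference -0.29, SE 0.072, adjusted p = 0.0216), a call lost without Dicer mutant 3, Dicer mutant 4, control 1 or control 2 (adjusted p 0.0513 to 0.0734) and without the 3 arrays (adjusted p = 0.112).

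The neuropilins, co-receptors of class 3 semaphorins and of vascular endothelial growth factors, both passed in each mutant but with opposite signs for Nrp1. Nrp1 read 9.37, 9.29, 9.26 and 9.14 in Yy1 mutants, 9.83, 9.97, 10.07 and 9.96 in Dicer mutants, and 9.49, 9.83, 9.47 and 9.53 in controls. Yy1 mutants lay below all controls and Dicer mutants above them, though Dicer mutant 1 and control 2 both rounded to 9.83. The difference was -0.32 (SE 0.089, adjusted p = 0.0492) in Yy1 mutants, 0.38 (SE 0.089, adjusted p = 0.0168) in Dicer mutants and -0.69 (SE 0.089, adjusted p = 0.000394) between them. The call in Yy1 mutants was lost in 11 of the 12 fits without 1 array, all but the one without Dicer mutant 1 (adjusted p 0.0530 to 0.135), and the call in Dicer mutants was lost without Dicer mutant 3, control 1 or control 3 (adjusted p 0.0517 to 0.0564). Without the 3 Y-high arrays neither passed (adjusted p = 0.235 in Yy1 mutants and 0.0887 in Dicer mutants), while the difference between the mutants kept its call in every fit without 1 array and without the 3. Nrp2, which also serves vascular endothelial growth factor C in lymphatic vessels, averaged 8.63 ± 0.116 in Yy1 mutants, 8.65 ± 0.143 in Dicer mutants and 8.20 ± 0.117 in controls (SD, n = 4 each). It rose in Yy1 mutants (log2 difference 0.43, SE 0.089, adjusted p = 0.00947) and in Dicer mutants (log2 difference 0.45, SE 0.089, adjusted p = 0.00615), and without the 3 arrays the adjusted p values were 0.0992 and 0.0516.

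Of the 5 netrin receptors, 3 passed in Yy1 mutants and 2 in Dicer mutants. Unc5b, a repulsive netrin receptor known in sprouting vessels, read 7.94, 8.08, 7.94 and 7.90 in Yy1 mutants, 8.45, 8.54, 8.59 and 8.37 in Dicer mutants, and 7.40, 7.66, 7.50 and 7.49 in controls. The 3 genotypes did not overlap, with Dicer mutants highest, Yy1 mutants next and controls lowest. It rose in Yy1 mutants (log2 difference 0.45, SE 0.076, adjusted p = 0.00240) and in Dicer mutants (log2 difference 0.97, SE 0.076, adjusted p = 6.82e-06), and was lower in Yy1 than in Dicer mutants (log2 difference -0.52, SE 0.076, adjusted p = 0.00109). Unc5d, a relative that also binds the adhesion protein Flrt2, read 5.91, 6.06, 6.10 and 6.19 in Yy1 mutants, 6.36, 6.04, 6.38 and 6.32 in Dicer mutants, and 7.07, 7.03, 6.87 and 6.95 in controls. All 8 mutant arrays lay below the controls. The gene fell in Yy1 mutants (log2 difference -0.92, SE 0.089, adjusted p = 3.61e-05) and in Dicer mutants (log2 difference -0.70, SE 0.089, adjusted p = 0.000263), with -0.21 (SE 0.089, adjusted p = 0.224) between them. Unc5c averaged 10.42 ± 0.147 in Yy1 mutants, 10.22 ± 0.120 in Dicer mutants and 9.97 ± 0.0212 in controls (SD, n = 4 each). Unc5c rose in Yy1 mutants (log2 difference 0.45, SE 0.081, adjusted p = 0.00426), and its difference in Dicer mutants was 0.25 (SE 0.081, adjusted p = 0.0833), which passed without the dimmest 30% of genes (adjusted p = 0.0473), with quantile normalisation (adjusted p = 0.0490) and with an intensity trend and robust prior (adjusted p = 0.0267). Dcc, the attractive netrin receptor, read 6.61, 6.06, 5.94 and 6.14 in Yy1 mutants, 5.29, 5.36, 5.69 and 5.23 in Dicer mutants, and 5.75, 5.91, 5.61 and 5.44 in controls. Yy1 mutants lay above all other arrays, and Yy1 mutant 1 was highest. It passed between the mutants, higher in Yy1 mutants (log2 difference 0.79, SE 0.15, adjusted p = 0.00537), while neither 0.51 (SE 0.15, adjusted p = 0.0557) in Yy1 mutants nor -0.29 (SE 0.15, adjusted p = 0.268) in Dicer mutants passed against controls. The difference in Yy1 mutants did pass without Yy1 mutant 3, Dicer mutant 3 or control 2 (adjusted p 0.0425 to 0.0462).

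The promoter windows of Unc5b and Epha4 are shown as those of 2 receptors that rose in Dicer mutants and moved apart in Yy1 mutants. They come from RefSeq on GRCm38.p6, at chr10:60831532-60831831 and chr1:77515039-77515338, both on the minus strand and written in the direction of the gene. Neither holds the letters CCATNTT on either strand, and so nothing is in capitals.
Unc5b: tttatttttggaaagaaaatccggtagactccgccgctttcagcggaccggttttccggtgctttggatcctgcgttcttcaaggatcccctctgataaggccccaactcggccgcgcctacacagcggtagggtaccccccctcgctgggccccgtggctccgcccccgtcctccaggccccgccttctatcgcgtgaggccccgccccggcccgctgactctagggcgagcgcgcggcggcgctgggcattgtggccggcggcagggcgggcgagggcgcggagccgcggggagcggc
Epha4: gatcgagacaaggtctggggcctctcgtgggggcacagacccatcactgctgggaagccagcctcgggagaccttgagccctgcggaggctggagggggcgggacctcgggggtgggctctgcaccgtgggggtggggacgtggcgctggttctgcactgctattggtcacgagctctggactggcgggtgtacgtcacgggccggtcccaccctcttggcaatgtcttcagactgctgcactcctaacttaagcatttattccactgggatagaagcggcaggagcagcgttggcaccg
GC content was 69.7% in the Unc5b window, 64.0% in the Epha4 window and 50.7% in the Sema3e window. The absence of these letters says nothing of binding elsewhere.

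None of the 4 Robos passed in Yy1 mutants (0 called, 1 at an unadjusted p under 0.05), and 2 passed in Dicer mutants in opposite directions. Robo2, a Slit receptor, read 9.08, 9.12, 9.03 and 8.99 in Yy1 mutants, 8.74, 8.57, 8.66 and 8.48 in Dicer mutants, and 9.27, 9.65, 9.32 and 9.22 in controls. The Dicer mutants were lowest, the Yy1 mutants next and the controls highest, without overlap. It fell in Dicer mutants (log2 difference -0.75, SE 0.093, adjusted p = 0.000227), the difference in Yy1 mutants was -0.31 (SE 0.093, adjusted p = 0.0691), and it was higher in Yy1 than in Dicer mutants (log2 difference 0.44, SE 0.093, adjusted p = 0.0134). The last call was lost without Dicer mutant 4 (adjusted p = 0.0515) and without the 3 Y-high arrays (adjusted p = 0.231). Robo4, the Robo of endothelial cells, averaged 8.55 ± 0.262 in Yy1 mutants, 8.94 ± 0.0449 in Dicer mutants and 8.46 ± 0.218 in controls (SD, n = 4 each). It rose in Dicer mutants (log2 difference 0.48, SE 0.13, adjusted p = 0.0290), a call lost in 7 of the 12 fits without 1 array, those without any Dicer mutant or without control 1, 3 or 4 (adjusted p 0.0564 to 0.0816), and without the 3 arrays (adjusted p = 0.0748). Robo1 averaged 10.11 ± 0.0983 in Yy1 mutants, 9.80 ± 0.103 in Dicer mutants and 10.02 ± 0.0740 in controls (SD, n = 4 each) and passed between the mutants and in neither comparison with controls. It was higher in Yy1 mutants (log2 difference 0.31, SE 0.074, adjusted p = 0.0269). That call was lost without Yy1 mutant 1, 3 or 4 or Dicer mutant 2, 3 or 4 (adjusted p 0.0645 to 0.0858) and without the 3 arrays (adjusted p = 0.119) and with array medians set equal (adjusted p = 0.0589), while the difference in Dicer mutants passed without Dicer mutant 1 (adjusted p = 0.0457).

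Of the 13 Eph receptor kinases measured, 2 passed in Yy1 mutants and 5 in Dicer mutants, and Epha4 moved in opposite directions. Epha4, which binds ephrins of both classes, read 8.29, 8.44, 8.20 and 8.20 in Yy1 mutants, 9.96, 9.77, 9.92 and 9.87 in Dicer mutants, and 9.11, 9.18, 8.94 and 8.86 in controls. The genotypes stood fully apart, with Dicer mutants highest, controls between and Yy1 mutants lowest. It fell in Yy1 mutants (log2 difference -0.74, SE 0.086, adjusted p = 0.000154) and rose in Dicer mutants (log2 difference 0.86, SE 0.086, adjusted p = 3.60e-05), that is 1.67-fold lower and 1.81-fold higher than in controls. Yy1 mutants stood below Dicer mutants (log2 difference -1.60, SE 0.086, adjusted p = 2.54e-07), or 3.03-fold, the largest of the 15 differences called between the mutants among the guidance genes. These 3 calls held in every fit run, those without 1 array and without the 3 Y-high arrays included. Epha5 read 7.03, 7.38, 7.05 and 6.86 in Yy1 mutants, 6.75, 6.91, 6.78 and 6.91 in Dicer mutants, and 6.48, 6.66, 6.58 and 6.57 in controls. Yy1 mutants lay above all controls, with Yy1 mutant 2 highest, and the Dicer mutants also lay above the controls. Epha5 rose in Yy1 mutants (log2 difference 0.51, SE 0.097, adjusted p = 0.00564, or 0.0657 without the 3 arrays), and its difference in Dicer mutants, 0.26 (SE 0.097, adjusted p = 0.119), did not pass with all arrays but passed without Yy1 mutant 2 (adjusted p = 0.0352).

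The other Eph calls were in Dicer mutants. Epha3, Epha2 and Epha7 rose, Epha3 (log2 difference 0.49, SE 0.11, adjusted p = 0.0154), Epha2 (log2 difference 0.41, SE 0.11, adjusted p = 0.0295) and Epha7 (log2 difference 0.33, SE 0.082, adjusted p = 0.0243). Epha3 averaged 10.37 ± 0.149 in Yy1 mutants, 10.51 ± 0.208 in Dicer mutants and 10.02 ± 0.161 in controls (SD, n = 4 each). Epha2, a receptor of epithelia and vessels, averaged 8.04 ± 0.119 in Yy1 mutants, 8.34 ± 0.116 in Dicer mutants and 7.93 ± 0.233 in controls (SD, n = 4 each), and Dicer mutant 3 read below the highest control. Epha7 averaged 9.53 ± 0.117 in Yy1 mutants, 9.74 ± 0.0681 in Dicer mutants and 9.41 ± 0.139 in controls (SD, n = 4 each). Ephb3 averaged 8.34 ± 0.0434 in Yy1 mutants, 8.02 ± 0.0895 in Dicer mutants and 8.34 ± 0.161 in controls (SD, n = 4 each). Ephb3 fell in Dicer mutants (log2 difference -0.32, SE 0.081, adjusted p = 0.0254) and was higher in Yy1 than in Dicer mutants (log2 difference 0.32, SE 0.081, adjusted p = 0.0346). Without the 3 Y-high arrays none of these calls passed in Dicer mutants (adjusted p = 0.0655 for Epha3, 0.0929 for Epha2, 0.0816 for Epha7 and 0.118 for Ephb3), nor did Ephb3 between the mutants (adjusted p = 0.274). In that fit, on fewer arrays, the log2 differences in Dicer mutants were 0.47, 0.43, 0.32 and -0.31 in the same order. For Ephb3 between the mutants it was 0.32. The Epha2 call was lost in 5 of the 12 fits without 1 array (Dicer mutant 2 or 4, control 1, 3 or 4; adjusted p 0.0638 to 0.0932) and the Epha7 call in 4 (Dicer mutant 2 or 4, control 1 or 2; adjusted p 0.0578 to 0.0755). The Ephb3 call against controls was lost in 4 (Dicer mutant 1 or 4, control 1 or 2; adjusted p 0.0599 to 0.0726), and between the mutants in 6 (Yy1 mutant 1, 3 or 4, Dicer mutant 1, 3 or 4; adjusted p 0.0618 to 0.100). With array medians set equal, neither Ephb3 call passed (adjusted p = 0.0512 and 0.103). Ephb4, the venous partner of Efnb2, passed in no comparison, with a difference of -0.04 (SE 0.059, adjusted p = 0.762) in Yy1 mutants and 0.10 (SE 0.059, adjusted p = 0.344) in Dicer mutants.

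**Figure D3:**
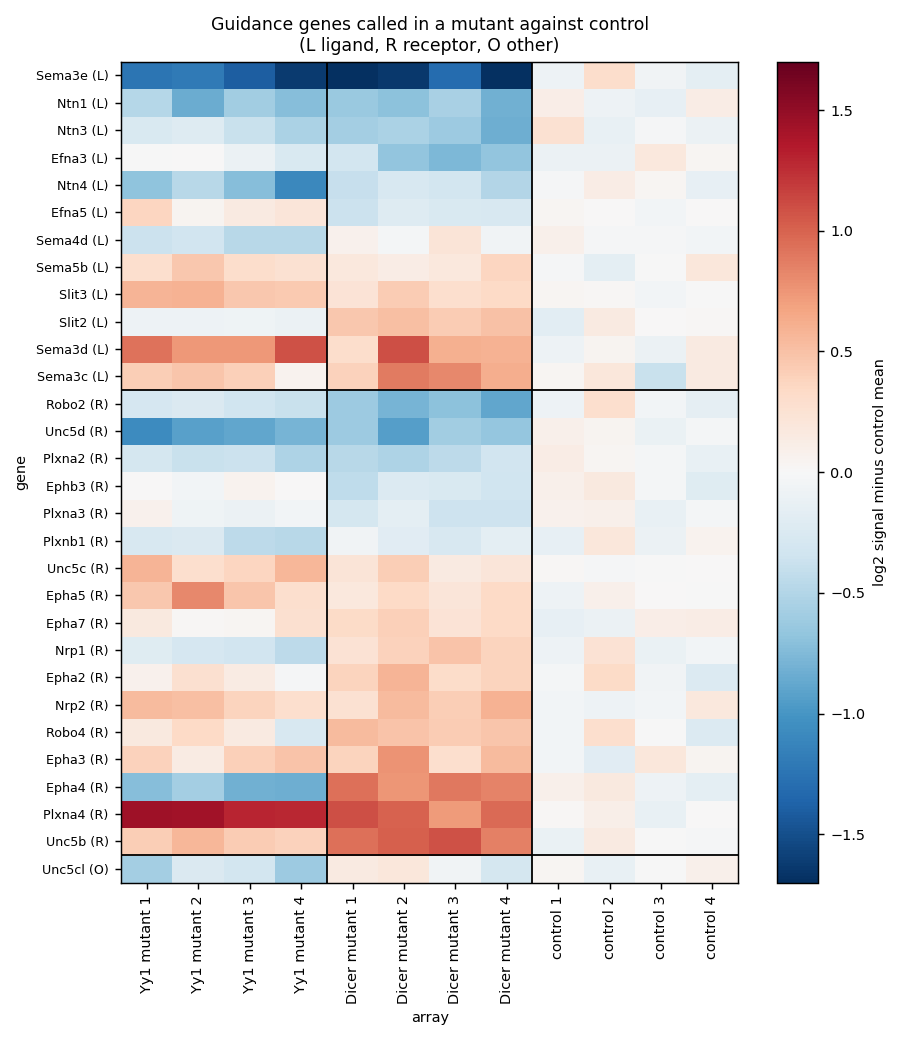
Log2 signal minus the control mean (colour, red higher and blue lower) of the 30 guidance genes called in either mutant against control, on each of the 12 arrays, with L for ligand, R for receptor and O for other. The 3 blocks of columns are Yy1 mutants, Dicer mutants and controls, and Epha4 is blue in Yy1 mutants and red in Dicer mutants.

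Set by role, the calls ran both ways on each side. In Yy1 mutants, 7 of 34 ligands passed (20.6%), 3 higher and 4 lower. Of 33 receptors, 10 passed there (30.3%), 5 higher and 5 lower, beside 6.61% of all genes. In Dicer mutants, 9 ligands passed (26.5%), 4 higher and 5 lower. There 14 receptors passed (42.4%), 9 higher and 5 lower, beside 8.75% of all genes. Between Yy1 and Dicer mutants, 6 ligands passed (17.6%), 3 higher and 3 lower in Yy1 mutants. In that comparison 8 receptors passed (24.2%), 5 higher and 3 lower in Yy1 mutants, beside 4.96% of all genes. Among ligand and receptor families, Sema3e fell in both mutants and its receptor Plxnd1 passed in neither. Ntn1 fell in both mutants, and of its receptors Unc5d fell and Unc5b rose in both. In Dicer mutants Slit2 and Slit3 rose, and of the Robos, Robo2 fell and Robo4 rose. Of the 3 further symbols, Unc50 and Plxna4os1 passed in no comparison, and Unc5cl, a death domain protein that binds no netrin as far as is known, fell in Yy1 mutants (log2 difference -0.44, SE 0.12, adjusted p = 0.0357) and was lower there than in Dicer mutants (log2 difference -0.43, SE 0.12, adjusted p = 0.0472). The first Unc5cl call was lost without Yy1 mutant 1 or 4 or control 1, 3 or 4 (adjusted p 0.0750 to 0.108), and the second in 10 of the 12 fits without 1 array, all but those without Yy1 mutant 2 or Dicer mutant 4 (adjusted p 0.0511 to 0.138).

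The other 40 guidance genes passed in neither mutant against control. Their log2 differences ran from -0.30 for Efna1 to 0.51 for Dcc in Yy1 mutants, with a median of -0.0024, and from -0.39 for Unc5a to 0.22 for Sema7a in Dicer mutants, with a median of -0.0154. By side they were 22 ligands, 16 receptors and 2 of the further symbols. They include 4 plexins besides Plxnd1 (Plxna1, Plxnb2, Plxnb3 and Plxnc1), the ephrins Efna2, Efna4, Efnb1 and Efnb3, and 6 Eph receptors besides Ephb4 (Epha1, Epha6, Epha8, Epha10, Ephb1 and Ephb6).

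**Figure D4:**
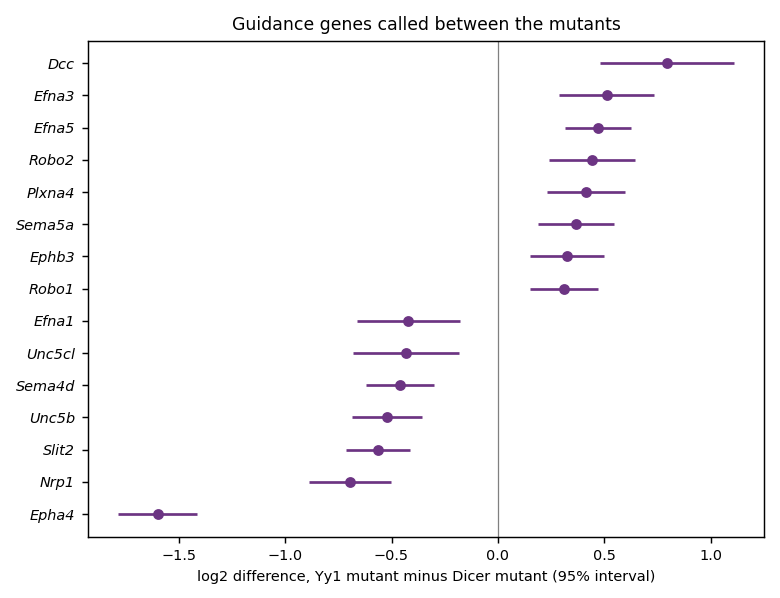
Log2 difference, Yy1 mutant minus Dicer mutant (x axis), with its 95% interval for the 15 guidance genes called between the mutants, ordered by size. Dcc is highest in Yy1 mutants relative to Dicer mutants, at 0.79, and Epha4 lowest, at -1.60.

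Genes that act with or below these receptors were read from a list of 47, of which 45 were measured. In Yy1 mutants 3 passed (6.67%, beside the 6.61% of all genes), in Dicer mutants 6 (13.3%, beside 8.75%) and between the mutants 4 (8.89%, beside 4.96%). The median difference of the list was -0.0033, 0.0132 and 0.0165 in the same order of comparisons. Mical3, of the family of actin-oxidising plexin effectors, rose in Yy1 mutants (log2 difference 0.40, SE 0.062, adjusted p = 0.00131) and in Dicer mutants (log2 difference 0.30, SE 0.062, adjusted p = 0.00883). Rras, the small GTPase that plexins switch off, rose in Yy1 mutants (log2 difference 0.44, SE 0.082, adjusted p = 0.00487) and in Dicer mutants (log2 difference 0.37, SE 0.082, adjusted p = 0.0128). Met, the scatter factor receptor that associates with plexin B1, fell in Yy1 mutants (log2 difference -0.34, SE 0.084, adjusted p = 0.0268). In Dicer mutants Mical1 (log2 difference 0.37, SE 0.088, adjusted p = 0.0185) and Kdr (log2 difference 0.37, SE 0.072, adjusted p = 0.00525) rose, and Dpysl5 (log2 difference -0.30, SE 0.065, adjusted p = 0.00983) and Flrt2 (log2 difference -0.60, SE 0.15, adjusted p = 0.0252) fell. Kdr is the vascular endothelial growth factor receptor that neuropilins assist, and Flrt2 is the Unc5d ligand named above. Flrt3, its relative, was higher in Yy1 than in Dicer mutants (log2 difference 0.87, SE 0.15, adjusted p = 0.00303). The other 3 genes called between the mutants were lower in Yy1 mutants. They were Mical1 (log2 difference -0.53, SE 0.088, adjusted p = 0.00292), Mical2 (log2 difference -0.51, SE 0.12, adjusted p = 0.0307) and Kdr (log2 difference -0.39, SE 0.072, adjusted p = 0.00585). Without the 3 Y-high arrays, the counts were 1 in Yy1 mutants, 3 in Dicer mutants and 2 between them, beside 2.73%, 4.40% and 1.96% of all genes.

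Markers of vessels were higher in Dicer mutants. Of 12 endothelial markers, 1 was called higher in Yy1 mutants and 9 in Dicer mutants, and 8 were lower in Yy1 than in Dicer mutants. The median difference of the list was 0.06 in Yy1 mutants and 0.42 in Dicer mutants. Their mean level spanned 8.91 to 9.16 in Yy1 mutants, 9.32 to 9.41 in Dicer mutants and 8.87 to 9.14 in controls. Pecam1, an adhesion protein of endothelial cells, had a difference of 0.08 (SE 0.079, adjusted p = 0.648) in Yy1 mutants and rose in Dicer mutants (log2 difference 0.47, SE 0.079, adjusted p = 0.00227). Of the 9 receptors that rose in Dicer mutants, Unc5b, Robo4, Nrp2, Epha2 and Nrp1, which are known in vessels, differed there by 0.97, 0.48, 0.45, 0.41 and 0.38. The remaining receptors that rose there were Plxna4, Epha4, Epha3 and Epha7. Plxna4, Unc5b and Nrp2 were also called higher in Yy1 mutants (1.36, 0.45 and 0.43), where 1 of the 12 endothelial markers was called. Plxnd1 and Ephb4, also known in vessels, passed in neither mutant. Macrophage markers were called higher for 7 of 9 in each mutant, with mean levels of 7.52 to 7.70 in Yy1 mutants, 7.65 to 7.85 in Dicer mutants and 7.05 to 7.24 in controls. Mesenchyme markers were called higher for 7 of 10 in Yy1 mutants and 5 of 10 in Dicer mutants, with mean levels of 10.2 to 10.3 in Yy1 mutants, 10.1 to 10.2 in Dicer mutants and 9.76 to 9.84 in controls. Of 8 measured neuron and glia markers, Ret was called lower in both mutants, and the mean levels were 6.40 to 6.67 in Yy1 mutants, 6.28 to 6.58 in Dicer mutants and 6.60 to 6.67 in controls. The part of these cell types in the guidance gene differences was not tested.

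**Figure D5:**
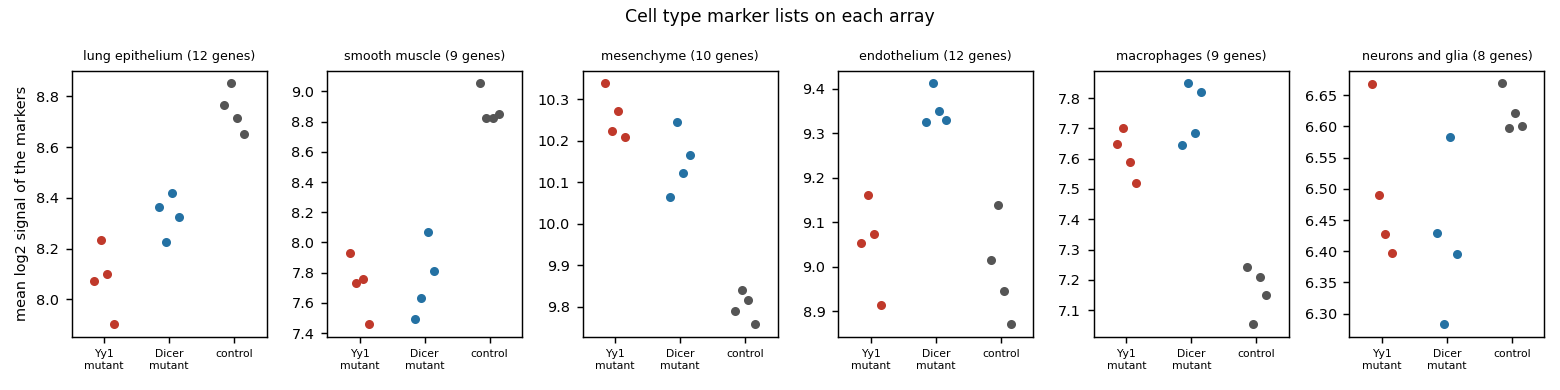
Mean log2 signal (y axis, one scale per panel) of 6 lists of cell type markers on each array, by genotype. Epithelial and smooth muscle markers are lower in both mutants than in controls, mesenchyme and macrophage markers higher, and endothelial markers higher in Dicer mutants.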

How the data were processed

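Gene expression in 12 lung specimens was measured on Affymetrix arrays, labelled with biotin per the labels' protocols. The values were used as deposited, as log2 signals, a scale inferred from their range of 1.10 to 13.6. How they were summarised and normalised, the software and the array build were not stated in the sources used here. With 4 arrays in each genotype, the array number sets the precision.

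Of 41345 probe sets, 23521 had exactly 1 symbol in the platform annotation. These gave 22180 genes, each represented by its brightest probe set on average, and 3 guidance genes had more than 1. All 70 guidance genes matched a RefSeq gene. Probe sets with several symbols were left out, 2 of which name a guidance gene.

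One limma model (version 3.58.1, R 4.3.3) held all genotypes, with 9 residual degrees of freedom, empirical Bayes moderation and two-sided tests, adjusted after Benjamini-Hochberg over all genes with a threshold of 0.05. The fit was tested on simulated data. Promoter windows were read from a RefSeq table on GRCm38.p6 with Python 3.11.15, and figures were made in matplotlib 3.10.9.

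The members, lists and tests were chosen with earlier results of these data known. Values on all arrays are given for called members, at most the 10 largest differences per mutant and 8 between the mutants. Other members may be named with means. Alternatives changed the scaling (quantile, equal medians), the genes (dimmest 30% left out, probe sets averaged), the model (intensity trend with robust prior, array weights, 2 genotypes per fit, replicate block, 1.2-fold minimum) and the arrays (each left out, 3 Y-high arrays left out). Lymphatic and mesothelial markers, 4 each, were also read: Pdpn fell in Yy1 mutants and Lyve1 rose in Dicer mutants, and Lrrn4 rose in both mutants and Upk3b in Dicer mutants.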

Additional observations from a re-analysis of the deposited data

Results flagged for a closer look

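One array stood apart within its genotype among the 37 guidance genes examined for this. Sema3c read 8.85 on Yy1 mutant 4, while the other 3 Yy1 mutants lay between 9.21 and 9.28. This was 1 of 111 sets of 4 arrays, in a check at the 95% level that flags about 5% of sets by chance.

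For 15 guidance genes the test of Yy1 against Dicer mutants passed, which tests for unequal differences from the shared controls. Of these, 8 also passed without the 3 Y-high arrays (beside 1.96% of all genes) and 3 with a 1.2-fold minimum (beside 0.825%). In the 12 fits without 1 array, the Unc5cl call was lost in 10, the Efna1 call in 9 and the Ephb3 and Robo1 calls in 6 each. Sema5a lost its call in 4 and Robo2 in 1. Higher in Yy1 than in Dicer mutants were the receptors Dcc (log2 difference 0.79), Robo2 (0.44), Plxna4 (0.41), Ephb3 (0.32) and Robo1 (0.31). The ligands on that side were Efna3 (0.51), Efna5 (0.47) and Sema5a (0.37). Lower in Yy1 than in Dicer mutants were the receptors Epha4 (-1.60), Nrp1 (-0.69) and Unc5b (-0.52), and the ligands Slit2 (-0.56), Sema4d (-0.46) and Efna1 (-0.42). Unc5cl, which is neither, was lower as well (-0.43).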

How the results depend on the processing

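The counts of guidance genes called, 18 in Yy1 mutants, 23 in Dicer mutants and 15 between the mutants, ranged over 14 to 18, 16 to 26 and 10 to 16 when each array was left out in turn. For the downstream genes, with 3, 6 and 4 calls, the ranges were 2 to 4, 4 to 8 and 3 to 5. The shares of all genes called in these fits ran from 4.6% to 6.56%, 5.75% to 8.98% and 3.27% to 5.32%. With a minimum change of 1.2-fold, which asks more of each gene by construction, 7, 7 and 3 guidance genes and 0, 0 and 0 downstream genes passed. The shares of all genes called at this setting were 1.15%, 1.24% and 0.825%. Without the 3 Y-high arrays, which leaves 9 arrays, the counts were 14 in Dicer mutants and 8 between the mutants, and 1, 3 and 2 for the downstream genes. The shares of all genes called without these arrays were 2.73%, 4.40% and 1.96%. Without the dimmest 30% of genes, 41 downstream genes were left. Of these, 5 passed in Yy1 mutants and 11 in Dicer mutants, beside 11.8% and 15.3% of all genes left. In Dicer mutants the downstream count was 10 with an intensity trend and robust prior, beside 11.1% of all genes. It was 12 there with array weights, beside 12.6%, and the cause was not tested. Other settings moved the guidance and downstream counts by no more than 1.5 times.

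Same-numbered specimens did not deviate together (correlations of -0.161 to 0.190 over 12 pairs, 3 of them best with their own number), so the numbers were not taken as pairing. With the replicate block the counts of guidance genes were 16, 24 and 15, beside 5.87%, 8.33% and 4.5% of all genes. Calls not made with the block were Nrp1, Sema5b and Unc5cl in Yy1 mutants (adjusted p = 0.0684, 0.0525 and 0.0528), Efna5 in Dicer mutants (0.0547) and Ephb3 and Unc5cl between the mutants (0.0550 and 0.0664). Calls made with the block and not without it included Ntn3 in Yy1 mutants (0.0293), Ntn4 and Robo1 in Dicer mutants (0.0155 and 0.0447) and Ntn4 between the mutants (0.0203). Of the 15 genes called between the mutants with the block, 13 were also called without it, and the added gene besides Ntn4 is not named here.

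Nrp1 in Yy1 mutants also lost its call with array weights (adjusted p = 0.0563), as did Unc5cl between the mutants (0.0652), Sema5b with quantile normalisation (0.0515) and, with only the genotypes compared, Nrp1 (0.0928), Plxnb1 (0.0558), Sema5b (0.0650), Epha2 (0.0614), Ephb3 (0.0664), Efna1 (0.0579) and Unc5cl between the mutants (0.0899). Without the dimmest 30% of genes, 23, 27 and 18 guidance genes passed, beside 11.8%, 15.3% and 8.93% of all genes left. Of these guidance genes, 18, 23 and 15 also passed in the main fit. The added calls included Ntn3, Robo2 and Dcc in Yy1 mutants (adjusted p = 0.0312, 0.0375 and 0.0300). They also included Ntn4, Robo1 and Unc5c in Dicer mutants (0.0332, 0.0483 and 0.0473) and Ntn4 between the mutants (0.0432). In each comparison further guidance genes passed that are not named here. Differences near 0 changed sign, and none of these was called. Efnb2 in Yy1 mutants (-0.0602 to 0.0231 without 1 array) was 0.0202 with array weights, 0.0016 without Yy1 mutant 2 and 0.0231 without control 2. Plxnd1 in Yy1 mutants (-0.0116 to 0.0719) was -0.0073 with equal medians and -0.0116 without control 4, and Sema4d in Dicer mutants (-0.0084 to 0.0872) was -0.0084 without Dicer mutant 3. Ntn1 between the mutants (-0.0465 to 0.0721) was -0.0222 with quantile normalisation, -0.0235 with equal medians, -0.0465 without Yy1 mutant 1, -0.0128 without Yy1 mutant 3 and -0.0352 without Dicer mutant 4. The cause of these changes was not tested.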
